A study of Mus musculus with 8 samples.

Results

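The genes described here are those of the mouse major histocompatibility complex (MHC) and of antigen processing, measured in primary hepatocytes after a high fat diet. They were chosen by name: every gene whose symbol on the array's annotation starts with H2-, and B2m, Tap1, Tap2, Tapbp, Tapbpl, Erap1, Nlrc5, Ciita, Cd74, Psmb8, Psmb9, Psmb10, Psme1 and Psme2. This gave 56 of 20290 measured genes, with 100 of 45281 probes: 4 classical class I genes, 27 non-classical class I genes, 12 genes of class I processing, 10 class II chains, 2 class II partners (Cd74 and Ciita), and H2-Ke6, a dehydrogenase gene that carries an H2- name from its place in the complex. The H2- genes were put into classes by symbol. The rule itself uses no measured value. 30 members had more than 1 probe, and the probe of highest mean level stands for each gene.

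The study profiled total RNA of hepatocytes isolated from male C57Bl/6 mice, on 8 Illumina arrays of 1 colour. Arrays 1, 2, 3 and 5 held cells of mice on normal chow, and arrays 8, 10, 11 and 12 cells of mice on a high fat diet (HFD). Both diets shared the culture: M199 with 10% serum, 1.5 nM EGF, 400 nM dexamethasone and 100 nM insulin for 4 h, then fresh medium containing insulin at 10 nM, and a harvest of RNA 24 h after the change. The design text calls the arrays biological replicates, while the sources used here give neither the age of the mice, the number of mice per array, the length of the diet nor the slides. Levels are the deposited log2 values, in the order of the array numbers above, as mean ± SD with n = 4 arrays a diet where averaged. Differences are HFD minus chow, and a fold is 2 to the power of the difference. Adjusted p-values are limma's, with Benjamini-Hochberg adjustment over all 20290 genes and a threshold of 0.05.

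MHC class I molecules are a heavy chain paired with beta-2-microglobulin, and nearly every nucleated cell, the hepatocyte included, uses them to show peptides from its own proteins to CD8 T cells. The peptides are cut by the proteasome, pumped into the endoplasmic reticulum by the transporter Tap1-Tap2 and loaded with the help of tapasin. Class II molecules show peptides taken up from outside to CD4 T cells, need the invariant chain Cd74, and belong mainly to macrophages, dendritic cells and B cells.

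Chow array 3 stood apart from the other arrays. Its correlation with them over all probes was 0.946 to 0.952, while every pair of the other 7 arrays had a correlation of at least 0.989. On this array 8 of the 56 members (14.3%) lay more than 1 from the mean of the remaining chow arrays, all 8 of them lower, against 421 of all 20290 genes (2.07%). Most of these 421 genes were lower too, 403 against 18 higher, so the direction is not particular to the members. Among genes above the upper quartile of all values (7.97) on some array, which 27 members are, the share was 8 of 27 members (29.6%) and 5.20% of 8098 genes. On each of the other arrays 0 to 2 members deviated so far from their own group. Counts of calls are therefore given with and without chow array 3. This array was singled out after its values were seen, those of the members among them. Leaving out an array that is low for a member raises that member's chow mean, which favours a lower call.

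4 members fell in HFD and 0 rose at an adjusted p below 0.05: H2-M1, H2-M9, H2-M2 and Cd74. This is 7.14% of the 56 members, beside 820 of 20290 genes in either direction (4.04%), of which 521 were lower (2.57%) and 299 higher (1.47%). 10 members had an unadjusted p below 0.05. Without chow array 3, 15 of 56 members (26.8%) fell and 0 rose, beside 1861 of all genes (9.17%), of which 880 were lower (4.34%) and 981 higher (4.83%). All 4 of the members called on 8 arrays were among these 15. The 11 added were H2-D1, H2-Q6, H2-Q7, H2-Q8, H2-T10, H2-T22, H2-T23, Psmb8, Tapbp, H2-Ab1 and H2-DMa. With adjustment over all 45281 probes in place of genes, the same probes of Psmb8 and H2-T22 did not pass without chow array 3 (adjusted p = 0.0573 and 0.050001). In bulk RNA, fewer cells of a type and less RNA per cell cannot be told apart.

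**Figure D1:**
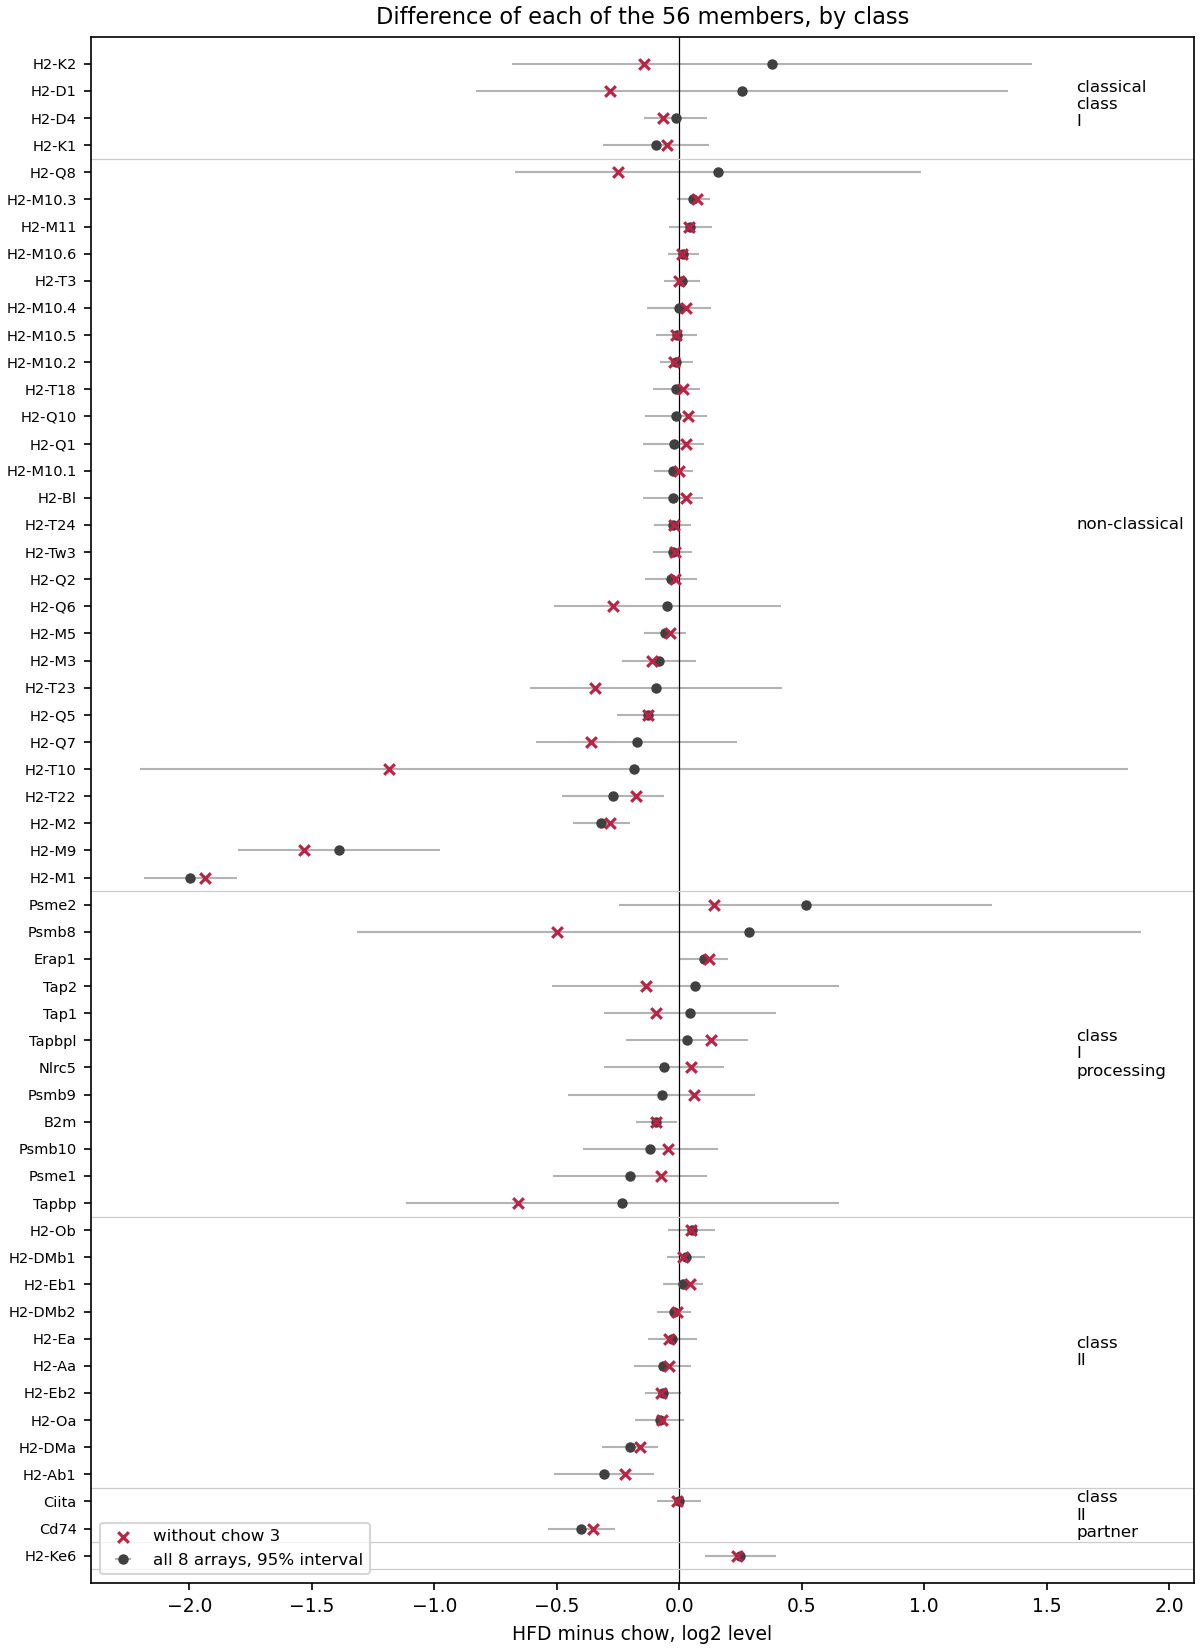
Difference HFD minus chow (log2) of each of the 56 members, ordered by class, over all 8 arrays (points, with the 95% interval as a bar) and without chow array 3 (crosses). H2-M1 and H2-M9 lie furthest to the left, at -1.99 and -1.39, and H2-T10 moves from -0.18 to -1.18 when chow array 3 is left out.

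The largest differences of any member were those of H2-M1 and H2-M9, non-classical class I genes of the H2-M region that are known from sensory neurons of the vomeronasal organ. H2-M1 was at 9.48, 9.62, 9.72 and 9.34 on the chow arrays and 7.49, 7.54, 7.65 and 7.50 on the HFD arrays. All 4 chow arrays lay well above all 4 HFD arrays, and the HFD values sat near the median of all probes on the arrays (7.51). The difference was -1.99 (SE 0.082, 95% CI -2.18 to -1.81, adjusted p = 1.78e-05). Since the HFD values lay near the floor of the scale, the difference may understate the change, and no fold is given. H2-M9 was at 9.65, 9.48, 8.79 and 8.97 on the chow arrays and 7.81, 7.84, 7.80 and 7.88 on the HFD arrays. The groups did not overlap here either, and the chow arrays spread more widely, with arrays 1 and 2 above arrays 3 and 5. H2-M9 differed by -1.39 (SE 0.178, adjusted p = 0.00517), again with HFD values below the upper quartile of all values and no fold given. Both calls were kept when any 1 array was left out.

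H2-M1 and H2-M9 lie next to each other on chromosome 17 of the mouse assembly GRCm38.p6, with 1 gene, not protein-coding, between them. Their 250 bases before the start (RefSeq, minus strand) are shown because these genes moved together and are close copies: H2-M1 is at chr17:36672198-36672447 and H2-M9 at chr17:36642645-36642894, and capitals mark the bases that differ.
H2-M1: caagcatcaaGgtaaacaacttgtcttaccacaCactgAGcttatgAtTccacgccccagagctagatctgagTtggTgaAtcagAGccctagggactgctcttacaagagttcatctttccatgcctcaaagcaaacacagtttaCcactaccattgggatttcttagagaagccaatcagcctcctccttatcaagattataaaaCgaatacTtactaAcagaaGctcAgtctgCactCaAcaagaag
H2-M9: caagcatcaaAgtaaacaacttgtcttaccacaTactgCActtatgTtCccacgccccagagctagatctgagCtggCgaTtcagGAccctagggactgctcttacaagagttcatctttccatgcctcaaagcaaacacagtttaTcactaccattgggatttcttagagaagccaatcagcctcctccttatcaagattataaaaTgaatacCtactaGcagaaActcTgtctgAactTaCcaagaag
The stretches were identical at 230 of 250 positions (92.0%). Aligned with gaps, the same stretch of H2-M1 was 47.9% to 65.3% identical to those of the other H2-M genes compared. Both hold the CCAAT and TATAAA boxes. Since each gene was measured by 1 probe and the probes' sequences were not used here, how far the probes of these copies share signal was not tested.

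H2-M2, another class I gene of the same region, was dimmer. It was at 7.73, 7.66, 7.88 and 7.81 on the chow arrays and 7.40, 7.42, 7.47 and 7.50 on the HFD arrays. All HFD arrays were below all chow arrays, by a small margin on a low level. The difference was -0.32 (SE 0.050, adjusted p = 0.0128), and without HFD array 10 the adjusted p was 0.0508. The 250 bases before its start, at chr17:37483555-37483804 on the minus strand, are shown for comparison with the pair above, with its CCAAT box in capitals.
H2-M2: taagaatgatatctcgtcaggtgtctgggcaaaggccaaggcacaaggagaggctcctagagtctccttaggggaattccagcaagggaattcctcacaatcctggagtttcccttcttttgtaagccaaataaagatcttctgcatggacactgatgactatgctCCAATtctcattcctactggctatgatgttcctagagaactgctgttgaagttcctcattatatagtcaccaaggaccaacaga
The other 9 of the 12 H2-M genes did not pass the test. H2-M3, which presents N-formylated peptides of bacteria and mitochondria, was the 1 among them above the upper quartile, and differed by -0.082 (SE 0.065, adjusted p = 0.699). H2-M5, H2-M11 and the 6 H2-M10 genes (H2-M10.1 to H2-M10.6) had means of 7.39 to 7.63 in both diets, with differences from -0.059 for H2-M5 to 0.058 for H2-M10.3. The neighbours of H2-M1 and H2-M9 in the complex, H2-M11 and H2-M10.5, had differences of 0.046 and -0.010.

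**Figure D2:**
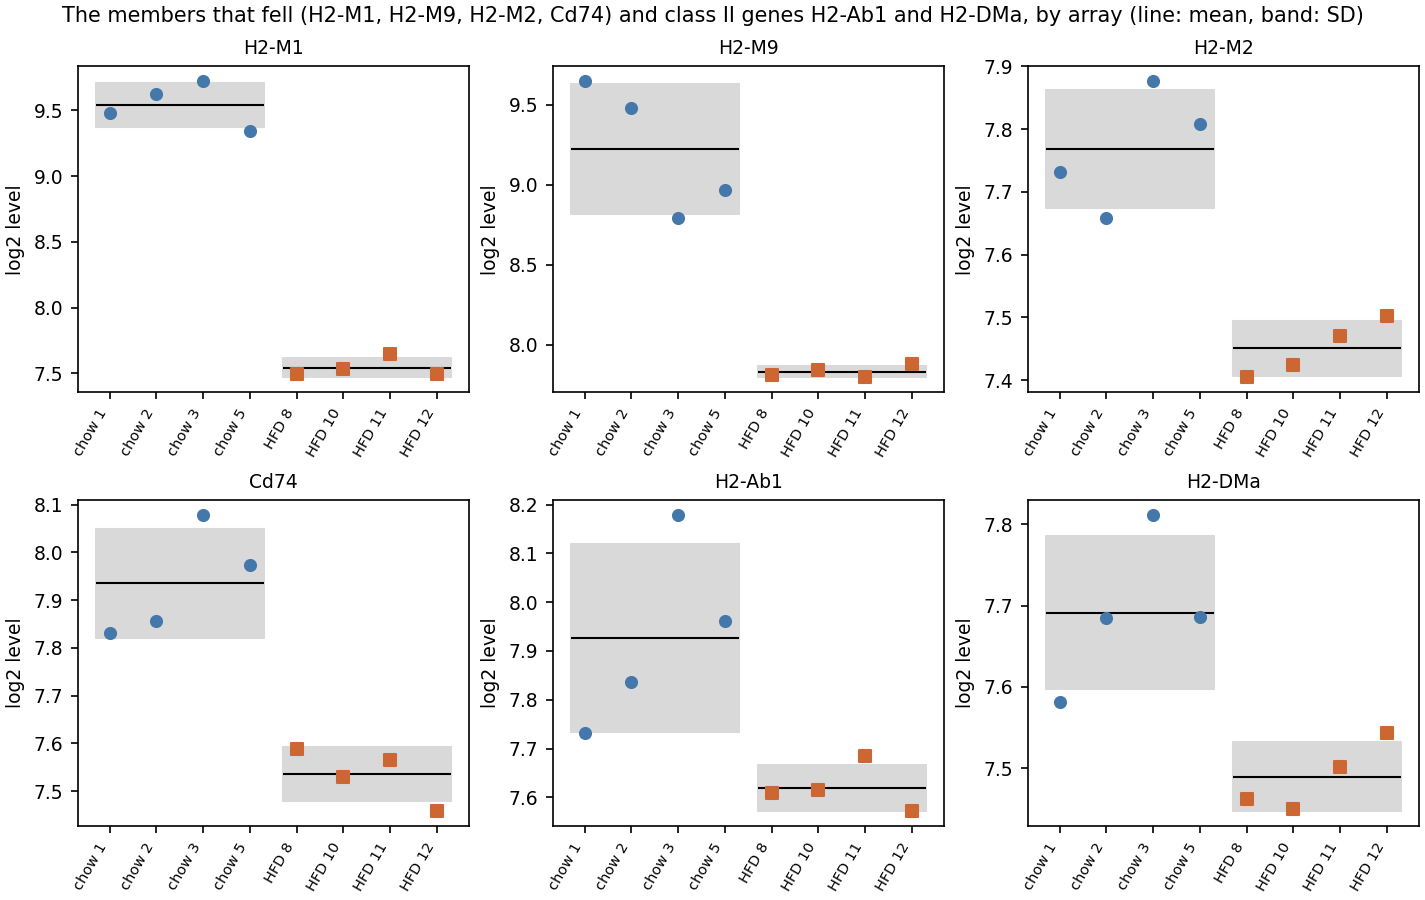
Log2 level on each array of H2-M1, H2-M9, H2-M2 and Cd74, the members that fell with 8 arrays, and of the class II genes H2-Ab1 and H2-DMa, with the group mean as a line and the SD as a band; the vertical axes differ between panels. In each panel all 4 HFD points lie below all 4 chow points, with the widest gap for H2-M1.

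Of the 4 genes classed as classical class I by an H2-K or H2-D symbol, 0 passed limma's test on 8 arrays, and 0 had an unadjusted p below 0.05. The class follows the symbol, and whether each gene encodes a functional classical chain was not examined. Their median difference was 0.12, beside -0.0046 over all genes. H2-K1 was at 12.23, 12.05, 12.24 and 11.92 on the chow arrays and 12.04, 12.11, 11.80 and 12.11 on the HFD arrays. The diets overlapped, with a difference of -0.096 (SE 0.094, adjusted p = 0.772). H2-D1, near the top of the scale, was at 14.27, 14.18, 12.08 and 14.26 on the chow arrays and 14.03, 14.00, 13.90 and 13.89 on the HFD arrays. Chow array 3 lay far below every other array, and the remaining chow arrays all lay above the HFD arrays. Over 8 arrays the difference was 0.26 (SE 0.470, adjusted p = 0.903). Without chow array 3 it was -0.28 (adjusted p = 0.00596), so that the direction turned and H2-D1 fell.

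H2-K2 had the same low chow array, with 14.02, 14.10, 12.04 and 14.30 on the chow arrays and 14.02, 14.04, 14.03 and 13.88 on the HFD arrays. It differed by 0.38 on 8 arrays and by -0.15 without chow array 3 (adjusted p = 0.307), with overlap between the diets in both. H2-D4 was dim, at 7.70 ± 0.11 in chow and 7.68 ± 0.055 in HFD. The median of the classical class I genes was -0.10 without chow array 3. How far the probes of H2-K1, H2-K2, H2-D1 and H2-D4 share signal was not tested.

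Probes of 1 gene did not deviate alike on chow array 3. H2-D1 had a second bright probe, at 13.59, 13.64, 13.26 and 13.63 on the chow arrays and 13.36, 13.15, 13.37 and 13.23 on the HFD arrays, where chow array 3 deviated from the other chow arrays by -0.36, against -2.16 on the first probe. That second probe differed by -0.25 (adjusted p over probes = 0.344), with every HFD array below chow arrays 1, 2 and 5 and chow array 3 among the HFD values. Without chow array 3 it differed by -0.34 (adjusted p over probes = 0.00805). For H2-K1 the split ran the other way, with chow array 3 0.18 above the other chow arrays on the brighter probe and a deviation of -0.99 on the second. The second H2-K1 probe differed by -0.27 without chow array 3 (adjusted p over probes = 0.0153) and by -0.022 with it. 5 of the 13 members with at least 2 probes above the upper quartile had probes that differed by more than 1 in how far chow array 3 deviated.

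Among the 27 non-classical class I genes 3 fell and 0 rose, the H2-M genes above. 4 had an unadjusted p below 0.05, and the median difference was -0.027. In the fit without chow array 3, 9 fell and 0 rose. Outside the H2-M region the largest of these was in the T region. H2-T10, whose product is a ligand of gamma delta T cells and carries no peptide, was at 11.50, 11.43, 7.38 and 11.20 on the chow arrays and 10.19, 10.37, 10.06 and 10.15 on the HFD arrays. Chow array 3 sat at the floor of the scale, while the other chow arrays were all above the HFD arrays. The difference was -0.18 (SE 0.873, adjusted p = 0.968) on 8 arrays and -1.18 without chow array 3 (adjusted p = 0.000167), a level 2.27-fold lower.

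A second H2-T10 probe did not drop on chow array 3. It was at 9.46, 9.37, 9.86 and 9.24 on the chow arrays and 8.83, 8.77, 8.75 and 8.83 on the HFD arrays. All chow arrays, array 3 among them, lay above all HFD arrays, and with all 8 arrays the probe differed by -0.69 (SE 0.118, adjusted p over all 45281 probes = 0.0276). Another, dim probe of H2-T10 differed by -0.10 (adjusted p over probes = 0.543). H2-T10, H2-T22 and H2-T23 are close relatives in the class I family, and how far their probes share signal was not tested.

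H2-T23 encodes Qa-1, which presents leader peptides of other class I chains to receptors of NK cells. It was at 12.97, 13.10, 12.07 and 13.16 on the chow arrays and 12.72, 12.69, 12.78 and 12.72 on the HFD arrays. Again chow array 3 was low and the other chow arrays were above every HFD array. The difference was -0.093 with 8 arrays and -0.34 without chow array 3 (adjusted p = 0.00326). Its 2 other probes differed by 0.085 and -0.085 in the 8-array fit, and by -0.099 and -0.061 without chow array 3, with no call. H2-T22, a close relative of H2-T10, was at 7.86 ± 0.19 in chow and 7.59 ± 0.064 in HFD, with adjusted p-values of 0.194 and, without chow array 3, 0.0447. H2-T3, H2-T18, H2-T24, H2-Tw3 and H2-Bl had means of 7.41 to 7.71 and differences from -0.027 to 0.011, none past the test.

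In the Q region H2-Q6, H2-Q7 and H2-Q8, genes of the Qa-2 family, did not pass the test on 8 arrays and passed it without chow array 3. H2-Q7 was the brightest of them, at 11.10 ± 0.40 in chow and 10.93 ± 0.069 in HFD, and its difference moved from -0.17 to -0.36 (adjusted p = 0.0226). H2-Q6 moved from -0.049 to -0.27 (adjusted p = 0.0176). H2-Q8 turned from 0.16 to -0.25 (adjusted p = 0.0322). H2-Q8 was at 9.67, 9.60, 7.94 and 9.46 on the chow arrays and 9.27, 9.42, 9.29 and 9.31 on the HFD arrays, so that without chow array 3 its groups did not overlap. Without chow array 3 the second H2-Q6 probe also fell (-0.37, adjusted p over probes = 0.0156). The second H2-Q8 probe did not pass in that fit (-0.24, adjusted p over probes = 0.114). The other H2-Q7 probes, both dim, differed there by -0.078 and -0.031 with no call. H2-Q6, H2-Q7 and H2-Q8 are near copies of each other, and their values may not be independent.

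H2-Q5 showed no dip on chow array 3, at 12.91 ± 0.089 in chow and 12.78 ± 0.075 in HFD, and did not pass the test (difference -0.13, adjusted p = 0.361). H2-Q10, a class I chain that the mouse liver is known to secrete, was dim on this probe, at 7.73, 7.70, 7.94 and 7.77 on the chow arrays and 7.73, 7.74, 7.80 and 7.82 on the HFD arrays. The diets overlapped, with a difference of -0.015 (SE 0.055, adjusted p = 0.958). H2-Q1 and H2-Q2 had differences of -0.023 and -0.033. Taking the 13 class I chains above the upper quartile on any array, classical and non-classical, the median difference was -0.10 with 2 lower calls. Of all 8098 genes above it, 487 were lower calls. Without chow array 3 the median was -0.27 with 9 lower calls, beside 826 of the 8098. H2-M1 and H2-M9 passed this filter through chow arrays only, and H2-T22 through chow array 3 only. Such a filter favours lower calls, so no conclusion is drawn from these counts. On chow array 3, 5 of the 13 were more than 1 below the other chow arrays.

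The promoters of the class I chains are known to carry an enhancer with a kappa B site, and those of several members an interferon-stimulated response element. The kappa B site, a run of 10 bases given by the capitals in the first 4 lines that follow, was searched on both strands of the 250 bases before to 50 after each start. It was found in 35 of 32851 RefSeq windows (0.107%) and in 4 of the 39 members that have one. These were H2-K1, H2-D1, H2-Q6 and H2-Q7. Without chow array 3, 3 of these 4 genes fell, beside 4.34% of all genes, while H2-K1 did so on its second probe and not on its brighter one. H2-Q6 and H2-Q7 are near copies, and a link between the site and the calls was not tested. Stretches of 50 bases around each site are shown. They lie at chr17:34000429-34000478 (H2-K1, minus strand), chr17:35262903-35262952 (H2-D1, plus), chr17:35424657-35424706 (H2-Q6, plus) and chr17:35439002-35439051 (H2-Q7, plus), with the match in capitals.
H2-K1: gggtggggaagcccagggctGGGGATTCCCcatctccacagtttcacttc
H2-D1: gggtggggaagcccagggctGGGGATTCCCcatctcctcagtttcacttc
H2-Q6: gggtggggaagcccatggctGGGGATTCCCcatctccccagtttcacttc
H2-Q7: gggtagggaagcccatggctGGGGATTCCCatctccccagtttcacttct
The interferon element was searched as GAAA, any 2 bases and GAAA, also on both strands. Only exact matches were counted, so members without a match may still carry variants of the element. The exact pattern was found in 1131 of the 32851 windows (3.44%) and in 5 of the 39 members, B2m, Erap1, H2-T22, H2-T23 and Psme1. It is shown for H2-T23 (chr17:36032796-36032845, minus strand), H2-T22 (chr17:36042904-36042953, minus) and B2m (chr2:122147528-122147577, plus); in the H2-T genes the match is on the other strand.
H2-T23: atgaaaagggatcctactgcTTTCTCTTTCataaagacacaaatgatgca
H2-T22: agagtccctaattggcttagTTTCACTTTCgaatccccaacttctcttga
B2m: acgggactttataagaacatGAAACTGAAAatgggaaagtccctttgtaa
CCAAT was found for 31 of the 39 members (79.5%) and in 37.4% of all windows. TATAAA was found for 15 of the 39 members (38.5%) and in 13.6% of all windows. A member was counted if any of its windows matched, so the shares of members are by gene and the others by window. These matches describe letters in the windows and were not tested as binding sites.

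Of the 12 genes of class I processing 0 passed limma's test on 8 arrays, 2 had an unadjusted p below 0.05, and the median difference was -0.014. Psmb8 and Tapbp, 2 of the 12, fell without chow array 3. B2m, the light chain of all class I molecules, was among the brightest genes, at 14.54, 14.64, 14.61 and 14.65 on the chow arrays and 14.55, 14.45, 14.52 and 14.54 on the HFD arrays. Its values lay close to the top of the scale (14.91), where differences may be compressed, and the difference was -0.093 (SE 0.036, adjusted p = 0.284). The mean of its 3 probes differed by 0.0082.

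The transporter subunits Tap1 and Tap2 did not pass the test. Tap1 was at 8.03, 8.13, 7.63 and 8.41 on the chow arrays and 7.95, 8.06, 8.26 and 8.10 on the HFD arrays, with overlap between the diets and a difference of 0.042 (SE 0.152, adjusted p = 0.956). Tap2 was at 9.47 ± 0.50 in chow and 9.53 ± 0.29 in HFD, with a difference of 0.065. Tapbp, or tapasin, which holds class I chains to the transporter, was at 9.14, 9.41, 7.53 and 9.12 on the chow arrays and 8.47, 8.72, 8.37 and 8.71 on the HFD arrays. Chow array 3 was the lowest of the 8 and the other chow arrays were the highest. Tapbp differed by -0.23 (adjusted p = 0.890), and by -0.66 without chow array 3 (adjusted p = 0.00583). Its second probe moved alike, from -0.075 to -0.27 (adjusted p over probes without chow array 3 = 0.0157). Tapbpl, a relative of tapasin that edits peptides, and Erap1, which trims peptides in the endoplasmic reticulum, differed by 0.032 and 0.10 without passing the test.

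The inducible proteasome subunits replace constitutive ones under interferon. Psmb8 was at 10.85, 10.72, 7.49 and 10.31 on the chow arrays and 9.92, 10.26, 10.16 and 10.18 on the HFD arrays. Chow array 3 lay at the floor, and the other chow arrays lay above every HFD array, array 5 by the least. The difference was 0.28 (SE 0.693, adjusted p = 0.931) on 8 arrays and -0.50 without chow array 3 (adjusted p = 0.0487). Psmb8's second probe, dimmer, had a deviation of only -0.32 on chow array 3 and differed by -0.14 and -0.21 in the fits with and without that array, with no call. Psmb9 and Psmb10 differed by -0.071 and -0.12 and did not pass. The activator subunits Psme1 and Psme2 differed by -0.20 and 0.52. Psme2's difference was 0.14 without chow array 3 (adjusted p = 0.183).

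Nlrc5, the transactivator of class I genes, was at 8.24, 8.34, 8.74 and 8.36 on the chow arrays and 8.33, 8.45, 8.42 and 8.24 on the HFD arrays. The diets overlapped, and the difference was -0.060 (SE 0.106, adjusted p = 0.898).

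**Figure D3:**
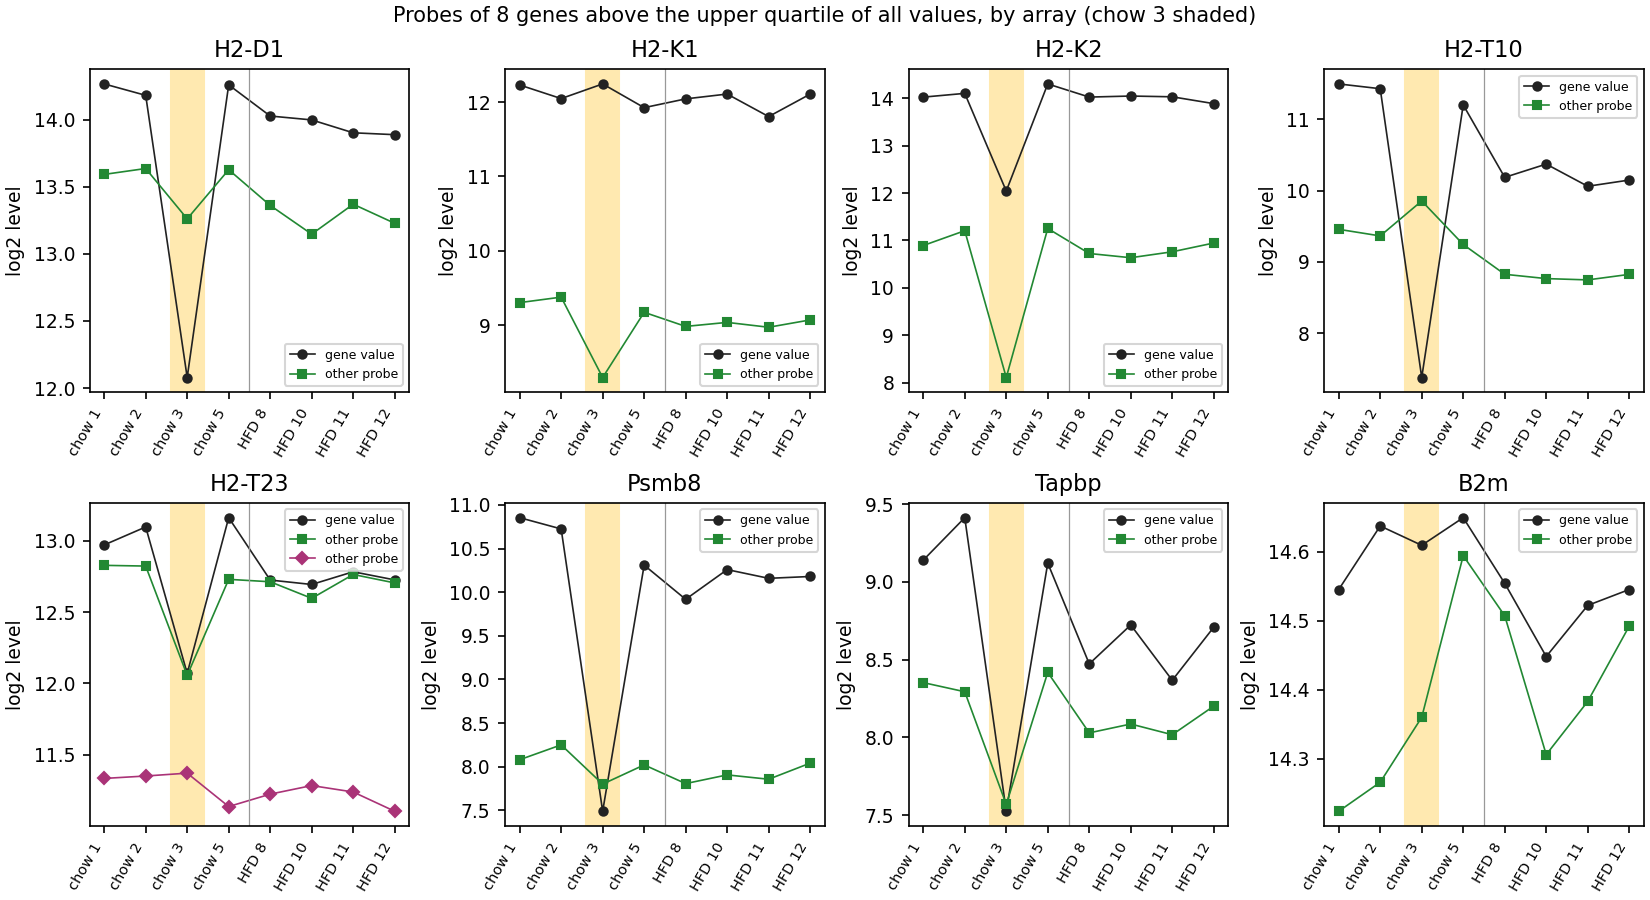
Log2 level on each array of the probes above the upper quartile of 8 class I and processing genes, with the probe that stands for the gene in black, other probes in colour and chow array 3 shaded; the vertical axes differ between panels. On chow array 3 the black probes of H2-D1, H2-T10 and Psmb8 drop steeply while their other probe drops little or rises, and both H2-K2 probes drop.

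The class II genes were dim. Of the 10 chains 1 was above the upper quartile on any array, and 0 passed limma's test on 8 arrays, with 2 at an unadjusted p below 0.05 and a median difference of -0.047. H2-Ab1 and H2-DMa, 2 of the 10, fell without chow array 3, and of the 2 partners Cd74 fell in both fits. Cd74, the invariant chain that guides class II molecules to the endosome, fell. It was at 7.83, 7.86, 8.08 and 7.97 on the chow arrays and 7.59, 7.53, 7.56 and 7.46 on the HFD arrays. All chow arrays lay above all HFD arrays, with a difference of -0.40 (SE 0.059, adjusted p = 0.00968) on a low level. Of its 3 probes a second differed by -0.35 (adjusted p over probes = 0.0324), and the last, at the floor in both diets, by -0.033; the mean of the 3 probes differed by -0.26 (adjusted p = 0.00768).

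H2-Ab1, the beta chain of the A molecule, was at 7.73, 7.84, 8.18 and 7.96 on the chow arrays and 7.61, 7.62, 7.68 and 7.57 on the HFD arrays. All HFD arrays were below all chow arrays. The difference was -0.31 (SE 0.089, adjusted p = 0.127), and without chow array 3 it was -0.22 (adjusted p = 0.0422). Its 2 other probes differed by -0.055 and -0.071, with overlap between the diets and no call with or without chow array 3, and the mean of the 3 probes by -0.14 (adjusted p = 0.0792). H2-DMa, a chain of the molecule that exchanges peptides on class II, was at 7.58, 7.68, 7.81 and 7.69 on the chow arrays and 7.46, 7.45, 7.50 and 7.54 on the HFD arrays. Its groups did not overlap either, with a difference of -0.20 (SE 0.050, adjusted p = 0.0751) and an adjusted p of 0.0428 without chow array 3. A second H2-DMa probe differed by -0.060 with no call, and the mean of the probes by -0.13 (adjusted p = 0.0144). H2-Eb2 also had all HFD arrays below all chow arrays (-0.068, adjusted p = 0.409).

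The alpha chain gene H2-Aa was at 7.46, 7.48, 7.63 and 7.65 on the chow arrays and 7.50, 7.48, 7.52 and 7.46 on the HFD arrays, with overlap and a difference of -0.067 (SE 0.050, adjusted p = 0.678). H2-Eb1 was at 7.46, 7.46, 7.59 and 7.48 on the chow arrays and 7.48, 7.53, 7.53 and 7.51 on the HFD arrays, where every array was near the median of all probes. H2-DMb1, H2-DMb2, H2-Ea, H2-Oa and H2-Ob were near the same level, with differences from -0.080 to 0.050; C57BL/6 mice are known to lack a functional H2-Ea. Ciita, the transactivator of class II genes, was at 7.44, 7.48, 7.41 and 7.40 on the chow arrays and 7.35, 7.41, 7.45 and 7.51 on the HFD arrays. The diets overlapped, with a difference of -0.0024 (SE 0.039, adjusted p = 0.993).

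H2-Ke6, which is no antigen-presenting molecule, was the 1 member with all HFD arrays above all chow arrays. It was at 10.33, 10.22, 10.19 and 10.17 on the chow arrays and 10.36, 10.42, 10.48 and 10.64 on the HFD arrays. The difference was 0.25 (SE 0.063, adjusted p = 0.0813). 8 members had all HFD arrays below all chow arrays, beside 6.47% of all genes, and the 1 above stands beside 4.24%. Without chow array 3, 16 were below and 4 above, beside 8.11% and 9.86% of all genes. The 8 with all arrays used are the 4 that fell, H2-T22, H2-Ab1, H2-DMa and H2-Eb2. Tested as probes, 6 of the 100 member probes fell and 0 rose, beside 945 of 45281 probes in either direction (2.09%), with 610 lower (1.35%) and 0.74% higher. Leaving out chow array 3, 19 probes of 14 genes fell and 0 rose, beside 5.96% in either direction, 2.99% lower and 2.98% higher.

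Genes of the same pathways outside the members were read from fixed lists. Of 12 other genes of class II processing, 1 fell, Ctss, the cathepsin that cuts the invariant chain (-0.29, SE 0.048, adjusted p = 0.0149). The call on Ctss was lost without HFD array 8, 11 or 12 (highest adjusted p 0.0564). In the fit without chow array 3, 3 of the 12 fell. Of 12 other genes of class I loading and trimming, 1 fell, Pdia3, a disulfide isomerase of the loading complex (-0.43, SE 0.084, adjusted p = 0.0300), a call that 6 of the 8 fits without 1 array lost. With chow array 3 left out, 2 fell and 1 rose. Of 8 other proteasome genes, constitutive catalytic subunits and other activators among them, 0 passed limma's test and 0 had an unadjusted p below 0.05. Pomp had the smallest p (-0.12, adjusted p = 0.472), and 0 of the 8 genes passed without chow array 3.

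Of 21 regulators of MHC promoters and of the interferon gamma pathway, 1 rose, Irf1 (0.46, SE 0.097, adjusted p = 0.0389), an interferon-induced activator of class I genes. Irf1 lost the call in 6 of the 8 fits without 1 array and when its probes were averaged (0.16, adjusted p = 0.167). With chow array 3 left out, 3 of the 21 fell and 2 rose. Of 8 costimulatory genes 1 fell, Cd40 (-0.42, SE 0.081, adjusted p = 0.0293), a receptor of antigen-presenting cells, again lost in 6 of the 8 fits without 1 array. With its probes averaged Cd40 still fell, by 0.22, and 2 of the 8 genes fell without chow array 3. Of 9 class I-like genes outside the H2- names 0 passed limma's test, 2 had an unadjusted p below 0.05, and Azgp1 had the smallest p (0.16, adjusted p = 0.201); Azgp1 rose by 0.40 when its probes were averaged (adjusted p = 0.0469), and without chow array 3 0 of the 9 passed.

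Markers of other liver cells were read from fixed lists as well. 8 of the 20 markers of macrophages and Kupffer cells fell and 0 rose, with a median difference of -0.59. Their mean level was 8.62 to 8.72 over the chow arrays and 7.92 to 8.15 over the HFD arrays, with chow array 3 the highest of the 8. The largest changes were in Fcer1g (-1.84, SE 0.125, adjusted p = 0.000283), Laptm5 (-1.46) and Adgre1 (-1.11, and -0.69 with its probes averaged), a receptor subunit, a lysosomal protein of blood cells and the F4/80 antigen. Of 5 Kupffer cell genes on the list, singled out after their values were seen, none passed the test on 8 arrays. Cd5l and Timd4 were near the floor, with means of 7.41 to 7.57, and Clec4f was at 7.77 ± 0.081 in chow and 7.89 ± 0.17 in HFD. Marco was at 8.16 ± 0.26 in chow and 7.69 ± 0.10 in HFD, with all HFD arrays below all chow arrays (-0.47, adjusted p = 0.0936). Vsig4 was at 9.05 ± 0.41 in chow and 8.69 ± 0.39 in HFD, with overlap. A subset picked in this way allows no conclusion about Kupffer cells. With 7 arrays, chow array 3 left out, 12 of the 20 fell.

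Of 14 sinusoidal endothelial markers 4 fell and 0 rose (median -0.29), with a mean level of 8.02 to 8.26 in chow and 7.76 to 7.82 in HFD; chow array 3 was again the highest. The largest differences were those of Fcgr2b (-1.37, and -0.40 with its probes averaged), Lyve1 (-0.80) and Cdh5 (-0.78, a call that 6 of the 8 fits without 1 array lost). With 7 arrays 9 fell and 1 rose. The part of macrophage or endothelial RNA in the lower Cd74, H2-Ab1, H2-DMa and H2-M values was not tested.

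All 10 dendritic, 6 B cell and 8 T and NK cell markers were at or near the floor, with median chow levels of 7.48, 7.49 and 7.44 and 0 calls in limma. The unadjusted counts were 2, 0 and 0, and the smallest p-values were those of Cd83 (adjusted p = 0.190), Blnk (adjusted p = 0.433) and Cd3g (adjusted p = 0.6). Of 11 stellate cell markers 0 passed, with 1 at an unadjusted p below 0.05, Reln (adjusted p = 0.292). Of 6 bile duct markers 2 rose, Cldn4 (0.58, SE 0.094, adjusted p = 0.0134) and Tspan8 (0.27, SE 0.043, adjusted p = 0.0131). Tspan8 was near the floor in chow, with a mean of 7.51. Krt7, Krt19 and Epcam were near it as well, with chow means of 7.60, 7.47 and 7.41 and no call. Sox9 differed by -0.23 with no call. The hepatocyte label was checked against 14 markers, whose median chow level was 11.35. Their mean level ran from 10.97 to 11.05 in chow and 10.92 to 11.15 in HFD, and 1 rose, Cps1, the first enzyme of the urea cycle (0.51, SE 0.078, adjusted p = 0.0105). The dendritic, B, T and NK, stellate, bile duct and hepatocyte lists had the same counts of calls without chow array 3. Alb, on the hepatocyte list, was at 8.37 ± 0.29 in chow and 8.17 ± 0.28 in HFD, below that list's median chow level of 11.35. Tat, G6pc and Fgb, also hepatocyte genes, were near the floor on their probes.

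**Figure D4:**
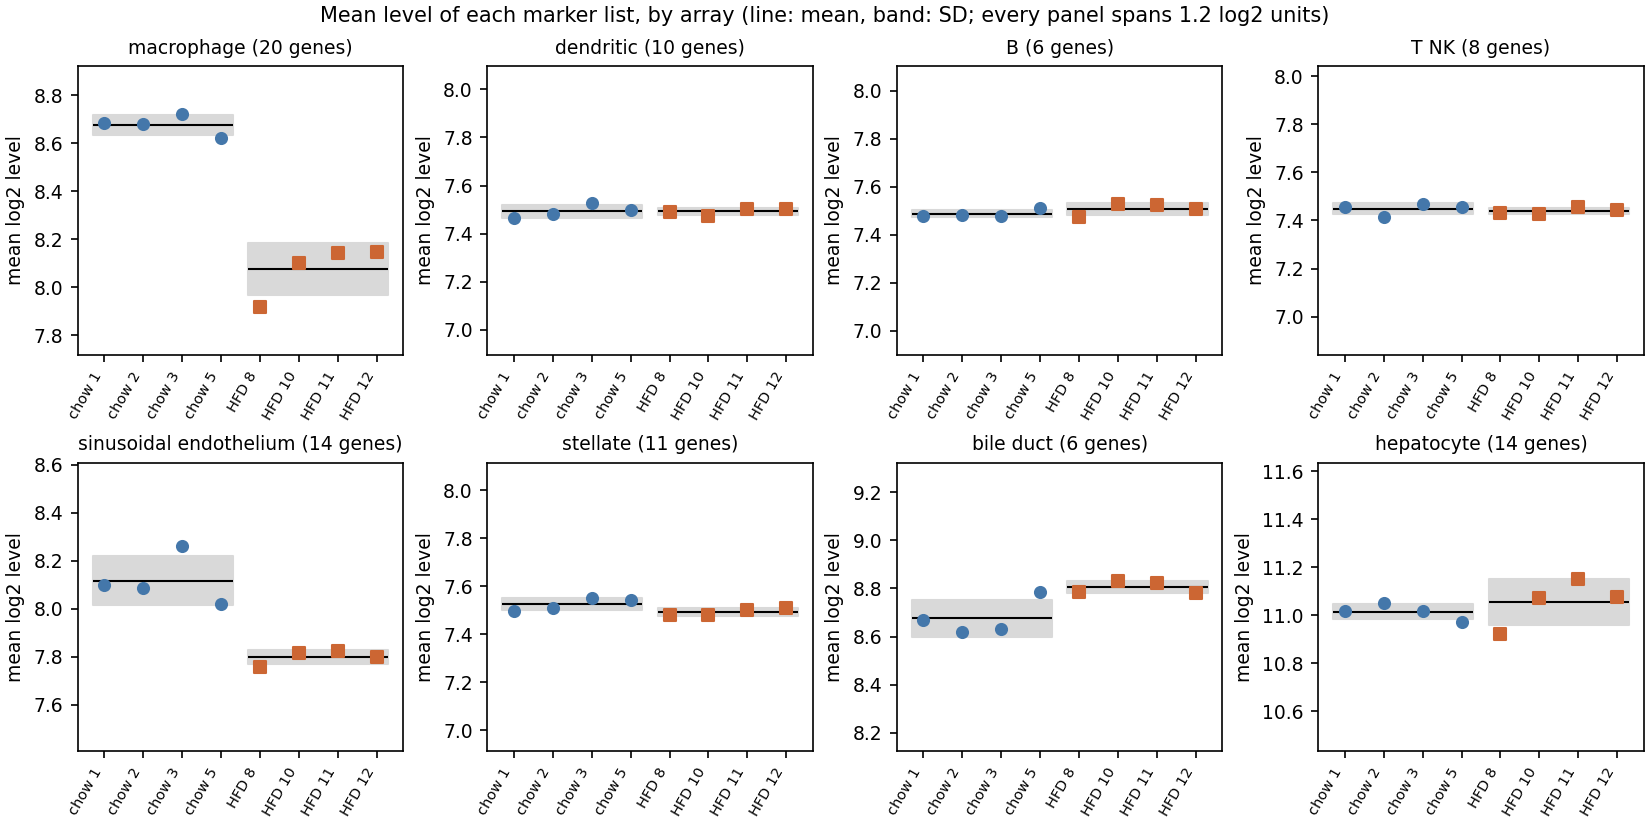
Mean log2 level of each marker list on each array, with the group mean as a line and the SD as a band; every panel spans 1.2 log2 units around its own centre. The macrophage and sinusoidal endothelial lists are higher on all chow arrays than on all HFD arrays, while the dendritic, B and T and NK cell lists stay near 7.5 on every array.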

How the data were processed

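The authors' deposited table holds log2 values of 45281 probes on 8 arrays; per the submitters' processing notes lumi was used, and the sources used here give neither its version nor its steps. That the unit is log2 was judged from the range of the values, and whether they are variance-stabilised is unknown. Sorted columns differed by at most 0.0026, so that they already shared 1 distribution, and a global shift of 1 array would not show. Detection p-values and slides were not used here. Depth does not apply to arrays. Their number limits precision, and p-values set a difference against the spread between these arrays. Whether that spread is one between mice is unknown, since the number of mice per array is not given. 0 columns were left unused.

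Probes were named from the platform annotation, updated through a mouse gene table of GRCm38.p6 (35784 named, 9497 unnamed); 55 members were found by annotation symbol and Nlrc5 by an older name, and 4 member probes carried older names. The diets were compared with limma 3.58.1 (R 4.3.3; lmFit, eBayes, 2-sided, no covariate), and figures were drawn in matplotlib 3.10.9 (Python 3.11.15). The fit was tested on simulated data. Array values are given for called members and for a fixed set of H2 and processing genes, others as means or ranges; from each of 14 gene lists, up to 3 called genes with the largest difference, or the 1 with the smallest p, are named. Some other array values were chosen after they were seen. Members and lists were chosen with earlier results of these data known. Listed genes without a probe are not analysed here. Promoters are RefSeq's for GRCm38.p6. Alternatives were quantile normalization, the mean of a gene's probes, 2 filters on dim probes, trend and robust moderation, array weights, updated symbols, all probes and leaving out each array.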

Additional observations from a re-analysis of the deposited data

Results flagged for a closer look

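In 23 of 150 groups of 4 arrays, 18 of them among the 112 groups of the members, 1 array lay apart from the other 3 by more than Dixon's 95% critical value; chance gives such a gap in about 1 in 20 groups. 11 of the 23 were on chow array 3, and they share that array. It was low for H2-D1 (12.08), H2-K2 (12.04), H2-Q8 (7.94), H2-T10 (7.38), Psmb8 (7.49), Psme2 (8.15) and Tapbp (7.525). It was high for H2-Bl (7.87), H2-M10.1 (7.63), H2-Eb1 (7.59) and Cd40 (8.35).

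On other chow arrays, H2-M11 was high on array 5 (7.50), Lyve1 low on array 5 (8.21), and H2-T24 (7.42) and Cps1 (8.18) low on array 1. In HFD, array 12 was low for H2-K2 (13.88) and H2-Q5 (12.67) and high for Cd83 (7.53). HFD array 8 was low for Psmb9 (9.12), Psme2 (9.66) and Pomp (13.05). HFD array 10 was high for H2-Q6 (8.78) and HFD array 11 for Tapbpl (8.56). The causes were not tested.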

How the results depend on the processing

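Over the 8 fits that leave out 1 array the members called ranged from 3 to 15 and all genes called from 447 to 1861. Classical class I calls ranged from 0 to 1, non-classical from 2 to 9, class I processing from 0 to 2 and class II chains from 0 to 2; the highest of each came without chow array 3. Without HFD array 8, 10, 11 or 12, 543, 457, 495 and 447 genes were called. Tested as probes without chow array 3, an alternative chosen after seeing the data, 19 member probes were called. With array weights 1603 genes were called. Class II chains called were 1 with each gene's probes averaged, 2 with trend and robust settings and 1 with array weights. Leaving out probes up to the upper quartile left 2 members called and 0 class II partners, since H2-M2 and Cd74 are removed by it. The median of the non-classical genes was -0.071 and -0.13 under the filters at the median and the upper quartile, since they remove dim members.

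H2-M1, H2-M9 and Cd74 kept their calls without any 1 array; H2-M2 lost it without HFD array 10. H2-DMa gained one with its probes averaged, with trend and robust settings, with array weights and without chow array 1 or 3, and H2-Ab1 with trend and robust settings and without chow array 3. The direction turned for members that were not called with 8 arrays. With array weights the differences were -0.17 for H2-D1, -0.022 for H2-K2, 0.035 for H2-Q10, -0.18 for H2-Q8, 0.031 for Nlrc5, -0.39 for Psmb8, 0.022 for Psmb9, -0.037 for Tap1 and -0.14 for Tap2. Without 1 array they ranged from -0.28 to 0.45 for H2-D1, from -0.15 to 0.61 for H2-K2, from -0.042 to 0.038 for H2-Q10, from -0.25 to 0.33 for H2-Q8, from -0.12 to 0.047 for Nlrc5, from -0.50 to 0.62 for Psmb8, from -0.18 to 0.060 for Psmb9, from -0.097 to 0.16 for Tap1, from -0.13 to 0.25 for Tap2, from -0.028 to 0.024 for Ciita, from -0.27 to 0.054 for H2-Q6, from -1.18 to 0.19 for H2-T10, from -0.34 to 0.019 for H2-T23 and from -0.062 to 0.13 for Tapbpl. B2m was 0.0082 with the mean of its probes. The causes were not tested, beyond the values of chow array 3. No paired analysis was possible because chow and HFD arrays share no replicate number.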
